A study of Mus musculus with 10 samples.

Results

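Messenger RNA of the fibroblast growth factor (FGF) receptor genes Fgfr1, Fgfr2 and Fgfr3 and of the ligand genes Fgf1, Fgf2, Fgf9 and Fgf15 was measured in E18.5 mouse brains from which the olfactory bulbs had been taken off. These 7 genes were picked by name from 28059 gene identifiers, and all 7 passed the filter on low counts. The series holds 10 libraries, 2 for each of 5 genotypes. By their labels, KO brains lacked COP1, DKO brains lacked COP1 and cJun, TKO brains lacked COP1, cJun and ETV1, and QKO brains lacked COP1, cJun, ETV1 and ETV5. The control brains were heterozygous for COP1, so that they too carried an altered COP1 copy. Neither a Cre line nor the cells in which the genes were deleted are given in the sources used here. Nothing in the labels states that both libraries of a genotype came from separate embryos or litters, so the p-values describe only the variation among these libraries. In DKO and in control, the libraries differ in Xist, a transcript made from the silenced X of female cells, and so came from different embryos. For KO and TKO the variation may be technical. The QKO libraries differed in hindbrain HOX genes and in pituitary genes, as given below, and so in the tissue they held. Whether they came from separate embryos is not stated.

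FGFs are secreted proteins that bind, together with heparan sulfate, to receptor tyrosine kinases on the cell surface, and the receptors signal through docking proteins and the ERK kinases to transcription factors that include ETV1, ETV4 and ETV5. In the developing brain, Fgfr1 and Fgfr2 are used by neural progenitors and by several other cell types, whereas Fgfr3 marks radial glia and the astrocyte lineage. COP1 is part of a ubiquitin ligase whose known substrates include cJun and the ETV1, ETV4 and ETV5 proteins. The genotypes therefore ask how the receptor and ligand transcripts stand when COP1 is lost, and when its substrates are removed as well.

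Library totals were between 31996944 and 54594523 counts, so a floor of 3 counts lay between 0.055 and 0.0938 CPM (counts per library after scaling libraries to equal size), a limit for counting error only. Jun, the cJun gene, averaged 15.7 ± 0.565 nRPKM in KO, 2.27 ± 0.940 in DKO, 1.54 ± 0.0818 in TKO, 1.75 ± 0.425 in QKO and 14.99 ± 0.00540 in control brains (SD, n = 2 each). The unit nRPKM is the authors' RPKM after division by library size factors, so that levels are per length of gene. Cop1, the gene of COP1, averaged 3.998 ± 0.228 nRPKM in KO, 3.76 ± 0.276 in DKO, 4.29 ± 0.0817 in TKO, 4.17 ± 0.315 in QKO and 4.87 ± 0.184 in control brains, so its transcript was detected in every genotype labelled as lacking COP1. Etv1 stood at 3.74 ± 0.0893 nRPKM in the libraries labelled TKO, above its 2.04 ± 0.0896 nRPKM in DKO, and at 4.88 ± 0.0893 nRPKM in control. Etv5 stood at 4.04 ± 0.0927 nRPKM in the libraries labelled QKO, at 3.84 ± 0.128 in TKO and at 6.98 ± 0.365 in control. A deleted exon need not show in counts summed over the gene, so for these 3 genes the counts are no check of the genotype, and all directions below rest on the labels. Summed CPM of 10 neuron markers was between 7748 and 8300 in all 10 libraries. Libraries stood apart in 4 other features. HOX genes of the caudal hindbrain summed to between 1.93 and 4.54 CPM in KO, 4.70 and 9.74 in DKO, 15.9 and 21.2 in TKO, 5.64 and 34.7 in QKO and 34.3 and 44.6 in control brains. Xist was at 1464 CPM in DKO 1 and at 1840 CPM in control 1, and at most 1.94 CPM in the other 8 libraries. Erythroid genes summed to between 431 and 507 CPM in DKO and to between 153 and 299 in the other libraries. Pituitary genes summed to 199 CPM in DKO 1 and 54.5 CPM in QKO 1, and to between 1.10 and 3.09 CPM in the other 8 libraries.

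Fgfr3 was the member that passed the edgeR test between genotypes. Its transcript rose 1.72-fold in KO against control brains, a call lost without KO 1 or without control 1. The Fgfr3 transcript was 2.02-fold lower in QKO than in KO brains. Averaged over DKO, TKO and QKO, the genotypes without cJun, it was 1.61-fold lower than in KO brains. Neither of the other receptors and none of the 4 ligands passed the edgeR test in any of the 10 comparisons made. DESeq2, an alternative test, called Fgf1 in DKO against control (DESeq2 adjusted p = 0.0392).

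The start regions of Fgfr3 are shown because this receptor carries the differences that passed the edgeR test. RefSeq (assembly GRCm38.p6) gives 2 windows of 300 bases for it, both on the plus strand of chromosome 5, upstream and at the start of the gene. The capitals mark the GC box, GGGCGG on either strand, which is bound by Sp-family factors.
Fgfr3 window, chr5:33721474-33721773: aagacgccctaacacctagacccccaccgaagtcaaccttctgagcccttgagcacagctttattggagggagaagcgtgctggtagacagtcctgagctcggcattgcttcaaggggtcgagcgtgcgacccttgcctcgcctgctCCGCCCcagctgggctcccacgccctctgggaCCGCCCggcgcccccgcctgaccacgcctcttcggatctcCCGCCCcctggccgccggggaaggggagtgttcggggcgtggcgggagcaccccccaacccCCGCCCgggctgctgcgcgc
Fgfr3 window, chr5:33722056-33722355: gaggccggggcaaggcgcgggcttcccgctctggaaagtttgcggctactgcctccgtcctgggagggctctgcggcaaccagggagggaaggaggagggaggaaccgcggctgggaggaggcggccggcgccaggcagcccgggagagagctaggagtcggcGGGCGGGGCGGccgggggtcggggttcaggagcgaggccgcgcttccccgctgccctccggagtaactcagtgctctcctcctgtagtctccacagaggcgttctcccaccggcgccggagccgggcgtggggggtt
The GC box was found 4 times in the first window and 2 times in the second, and 35.7% of 32851 RefSeq promoter windows of this length hold at least 1. Letters of the AP-1 element bound by Jun-family proteins (TGANTCA) were searched on both strands and matched 0 times in either window, against 7.81% of all windows with a match. Those of 1 form of the element of ETS factors (CGGAAG) also matched 0 times, against 16.9% of all windows. The shorter GGAA within it was not counted and occurs in both Fgfr3 windows. The G and C content was 69.7% and 73%. For the other members, windows of Fgf2, Fgfr2 and Fgf9 were at hand, and each held 0 matches to AP-1 and ETS letters. The counts were made on another build, NCBIM37, so no count attaches to these coordinates.

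Fgfr3 (gene 14184) stood at 20.02 and 17.6 nRPKM in KO, 12.6 and 14.4 in DKO, 12.6 and 12.9 in TKO, 10.3 and 8.55 in QKO and 10.8 and 11.3 in control brains, from between 1699 and 5254 counts a library. Both KO libraries lay above all other libraries and both QKO libraries below all others. DKO and TKO overlapped each other and lay between KO and control. In order of mean level, KO had 18.8 ± 1.70 nRPKM, DKO 13.5 ± 1.25, TKO 12.8 ± 0.172, control 11.04 ± 0.405 and QKO 9.40 ± 1.20 (SD, n = 2 each). No step between neighbours in this order passed the test. In DKO against KO the log2 difference was -0.49 ± 0.10 (SE; edgeR adjusted p = 0.0542), in TKO against DKO -0.08 ± 0.10, in TKO against control 0.21 ± 0.10 and in QKO against control -0.23 ± 0.10.

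The log2 fold change of Fgfr3 was 0.78 ± 0.10 in KO against control (edgeR adjusted p = 0.00462), -1.01 ± 0.10 in QKO against KO (adjusted p = 0.000456) and -0.69 ± 0.08 for the average of DKO, TKO and QKO against KO (adjusted p = 0.000917). Without KO 1 the change in KO against control was 0.68 ± 0.11 and missed the threshold (edgeR adjusted p = 0.0661), and without control 1 it was 0.74 ± 0.13 (adjusted p = 0.0806). The fall in QKO against KO and in the average without cJun passed with any 1 library left out; without QKO 1, a library with pituitary RNA, it was -1.14 in QKO against KO (edgeR adjusted p = 0.000336). These 3 comparisons share the KO libraries and are not independent of one another. In whole-tissue RNA, fewer cells of a type and less RNA per cell cannot be told apart.

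Fgfr3 passed in KO against control as 1 of 7 members, where 0.734% of all 18671 genes tested passed. It was also the single member called in QKO against KO (1.29% of all genes) and in the average of DKO, TKO and QKO against KO (0.980%). In the other 7 comparisons 0 members passed, and there the counts at an unadjusted p under 0.05 and by DESeq2 follow, each with the share of all genes that met the same rule.

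In DKO against control, where 0.423% of genes passed, 4 members had an unadjusted p under 0.05 (Fgfr1, Fgfr3, Fgf1 and Fgf15, against 8.14% of genes), and DESeq2 called 1, Fgf1 (0.700% of genes). In TKO against control, 0.150% of genes passed, 4 members were below that unadjusted p (Fgfr2, Fgfr3, Fgf1 and Fgf15, against 10.3% of genes) and DESeq2 called 0 (0.424%). For QKO against control, 0.236% of genes passed, Fgfr3 was the 1 member at an unadjusted p under 0.05 (6.89% of genes) and DESeq2 called 0 (0.433%). Averaged over all 4 genotypes without COP1, 0.134% of genes passed against control, 3 members were below the unadjusted limit (Fgfr3, Fgf1 and Fgf15, against 8.39% of genes) and DESeq2 called 0 (0.524%). The members that recur in these comparisons are Fgfr3, Fgf1 and Fgf15, and all 4 comparisons use the same control libraries.

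DKO against KO, the step that removes cJun, had 0.568% of genes past the test and 3 members at an unadjusted p under 0.05 (Fgfr3, Fgf1 and Fgf9, against 13.8% of genes). DESeq2 called 1 of them, Fgfr3 (DESeq2 adjusted p = 0.000778; 1.47% of genes). TKO against DKO had 0.0911% of genes past the test, 2 members at an unadjusted p under 0.05 (Fgfr1 and Fgf9, against 11.9% of genes) and 0 by DESeq2 (0.429%). QKO against TKO had 0.289% of genes past the test, 2 members at an unadjusted p under 0.05 (Fgfr3 and Fgf1, against 5.78% of genes) and 1 by DESeq2, Fgfr3 (-0.45 ± 0.10 by edgeR; DESeq2 adjusted p = 0.00815; 0.532% of genes). The steps that remove cJun and ETV5 were thus those in which the test used decided whether Fgfr3 was called.

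**Figure D1:**
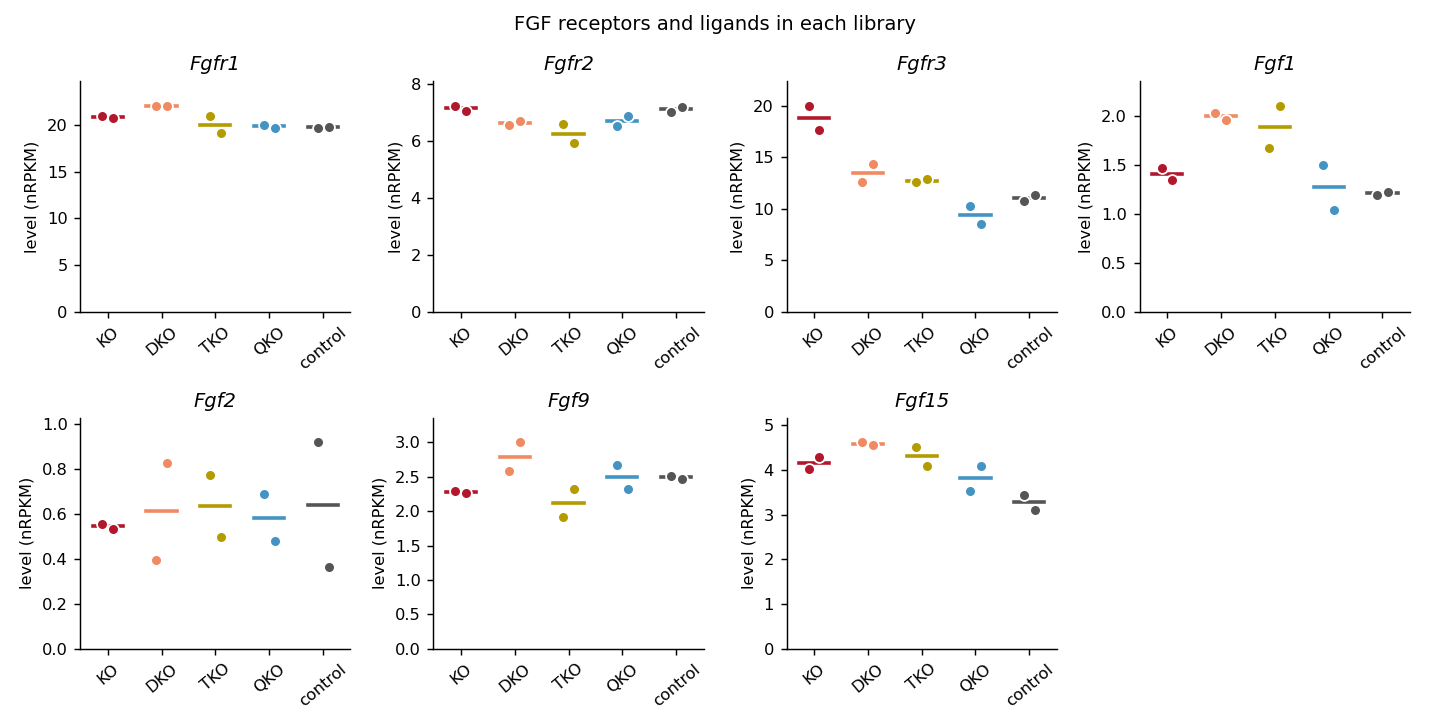
Level (nRPKM, vertical axis from 0) of each of the 7 members in KO, DKO, TKO, QKO and control brains; points are libraries, bars the mean of 2. Both KO libraries stand above all others for Fgfr3 (20.02 and 17.6 nRPKM), DKO and TKO stand highest for Fgf1, and control stands lowest for Fgf15.

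Fgfr1 and Fgfr2, the receptors with a broader use in the brain, showed no called difference. Fgfr1 (gene 14182) stood at 20.9 and 20.8 nRPKM in KO, 22.05 and 22.1 in DKO, 20.98 and 19.1 in TKO, 20.02 and 19.7 in QKO and 19.7 and 19.8 in control brains. Both DKO libraries were the highest of the 10, and TKO, QKO and control overlapped. Its log2 differences ran from -0.13 ± 0.06 in TKO against DKO to 0.16 ± 0.06 in DKO against control (edgeR adjusted p = 0.409 and 0.433). Fgfr2 (gene 14183) stood at 7.25 and 7.08 nRPKM in KO, 6.59 and 6.71 in DKO, 6.60 and 5.94 in TKO, 6.55 and 6.91 in QKO and 7.04 and 7.22 in control brains. KO and control libraries overlapped and lay above DKO, TKO and QKO. The lowest log2 difference of Fgfr2 was -0.18 ± 0.07 in TKO against control (edgeR adjusted p = 0.437), and the average of DKO, TKO and QKO against KO was -0.14 ± 0.06 (adjusted p = 0.376).

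Because the 3 receptors differ in how they move, their makeup differs too. Fgfr3 made up 41.5 and 38.7% of the summed receptor nRPKM in KO, 30.6 and 33.4% in DKO, 31.4 and 33.9% in TKO, 27.8 and 24.3% in QKO and 28.7 and 29.5% in control brains. KO brains thus had the highest share in both libraries and QKO the lowest. The summed level of the receptors averaged 46.9 nRPKM in KO, 42.2 in DKO, 39.1 in TKO, 36.0 in QKO and 37.9 in control brains. The share averaged 40.1 ± 1.99% in KO, 32.0% in DKO, 32.7% in TKO, 26.1% in QKO and 29.1 ± 0.599% in control brains. It restates the Fgfr3 levels above and is no separate result. An exact permutation test of the share in KO against control cannot give a p under 0.333, so no conclusion is drawn from it.

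**Figure D2:**
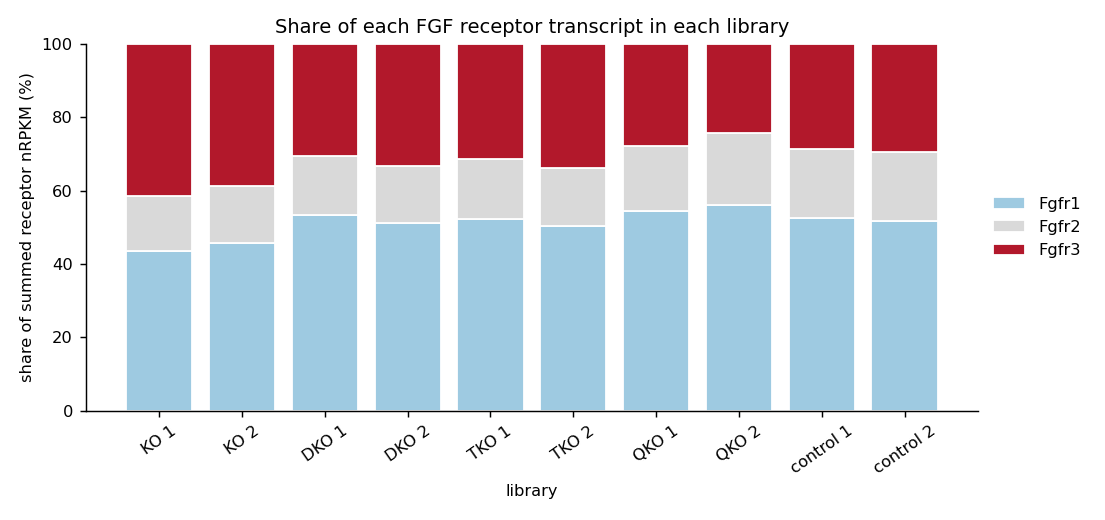
Share of each receptor in the summed nRPKM of Fgfr1, Fgfr2 and Fgfr3 (percent, vertical axis from 0), 1 bar for each library in the order KO, DKO, TKO, QKO and control. The Fgfr3 segment at the top is largest in KO (41.5 and 38.7%) and smallest in QKO (27.8 and 24.3%).

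The ligands were lower in level than the receptors. Over all 10 libraries, Fgf15 averaged 4.02 nRPKM, Fgf9 2.44, Fgf1 1.56 and Fgf2 0.603, against 20.5 for Fgfr1, 13.1 for Fgfr3 and 6.79 for Fgfr2. Fgf15, the mouse counterpart of human FGF19 and a signal of the embryonic midbrain and diencephalon (gene 14170), stood at 4.01 and 4.28 nRPKM in KO, 4.61 and 4.55 in DKO, 4.52 and 4.09 in TKO, 3.54 and 4.09 in QKO and 3.45 and 3.10 in control brains. All 8 libraries without COP1 lay above both control libraries. The log2 difference over these 8 was 0.37 ± 0.09 (edgeR adjusted p = 0.207), and it was largest in DKO against control at 0.49 ± 0.11 (adjusted p = 0.153). It did not pass in any comparison.

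Fgf1, or acidic FGF, a ligand that binds all FGF receptors (gene 14164), had 1.47 and 1.35 nRPKM in KO, 2.03 and 1.96 in DKO, 1.68 and 2.10 in TKO, 1.503 and 1.04 in QKO and 1.20 and 1.22 in control brains. The 4 DKO and TKO libraries lay above the other 6. Its log2 difference was 0.73 ± 0.17 in DKO against control (edgeR adjusted p = 0.148; DESeq2 adjusted p = 0.0392) and 0.65 ± 0.17 in TKO against control (edgeR adjusted p = 0.263). In QKO against TKO it was -0.58 ± 0.17 (edgeR adjusted p = 0.358). The DKO libraries also carried the highest erythroid sums given above; the part of blood in the Fgf1 values was not tested.

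Fgf9, a ligand made by neurons and glia (gene 14180), had 2.29 and 2.27 nRPKM in KO, 2.58 and 2.999 in DKO, 1.91 and 2.33 in TKO, 2.68 and 2.33 in QKO and 2.52 and 2.47 in control brains. DKO 2 was the highest library and TKO 1 the lowest. Its largest log2 difference was -0.39 ± 0.12 in TKO against DKO (edgeR adjusted p = 0.314). Fgf2, or basic FGF, a mitogen of neural progenitors (gene 14173), rested on between 12 and 30 counts a library. It had 0.555 and 0.534 nRPKM in KO, 0.395 and 0.829 in DKO, 0.775 and 0.499 in TKO, 0.687 and 0.478 in QKO and 0.918 and 0.365 in control brains. The control libraries alone spanned all other values, and differences of the size seen for Fgfr3 were not detectable for Fgf2 at this depth, with standard errors of 0.38 to 0.50 on the log2 scale.

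**Figure D3:**
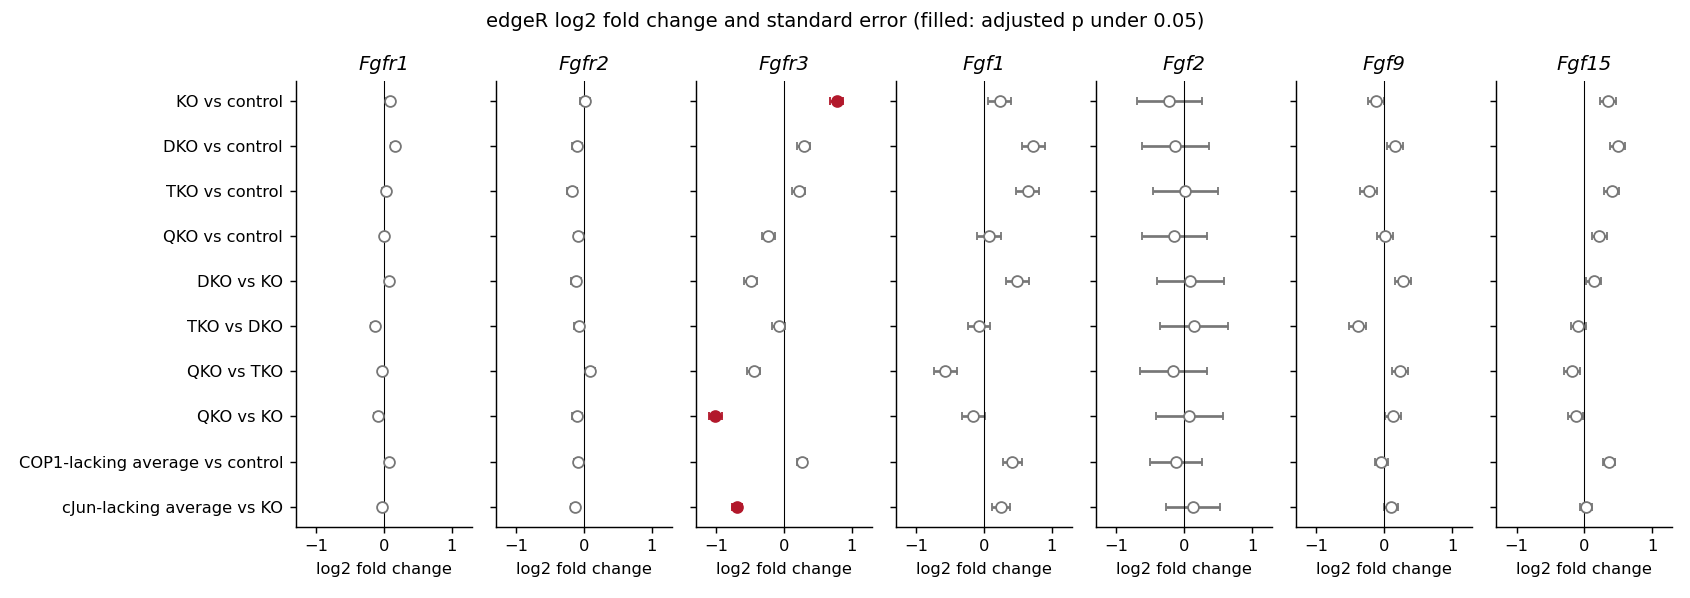
edgeR log2 fold change (horizontal axis) with its standard error for the 7 members in 10 comparisons, which run down the page; filled red points passed at an adjusted p under 0.05. The 3 filled points all belong to Fgfr3 (0.78 in KO vs control, -1.01 in QKO vs KO and -0.69 in the average without cJun vs KO), and the bars of Fgf2 are the widest.

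A few other genes followed the Fgfr3 levels closely over the libraries. Likeness was measured as the root mean square difference in centred log2 CPM over the 10 libraries, among 14774 genes, as a description. The 3 nearest were Cbs, an enzyme of homocysteine metabolism (0.08), Hepacam, an adhesion protein of astrocytes (0.09), and Pdgfra, the growth factor receptor of oligodendrocyte precursors (0.10). Fgfr1 stood at 0.32 and Fgfr2 at 0.34 from Fgfr3, near the median of all genes at 0.36. Cbs had 9.998 and 9.86 nRPKM in KO, 6.97 and 8.70 in DKO, 7.30 and 7.41 in TKO, 6.29 and 5.06 in QKO and 6.41 and 6.41 in control brains. Hepacam had 18.9 and 16.9 nRPKM in KO, 14.02 and 15.99 in DKO, 13.6 and 13.9 in TKO, 11.1 and 9.87 in QKO and 11.9 and 12.3 in control brains. Pdgfra had 21.5 and 20.5 nRPKM in KO, 16.3 and 18.502 in DKO, 16.99 and 16.7 in TKO, 12.8 and 11.8 in QKO and 13.5 and 14.8 in control brains. All 3 genes were highest in the KO libraries and lowest in QKO 2, as Fgfr3 was.

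The change of Fgfr3 in KO against control (0.78) was larger than that of 13 of 14 astrocyte markers (median 0.06; Gfap was the exception), of all 13 radial glia markers (median 0.28) and of 4 of 7 oligodendrocyte precursor (OPC) markers (median 0.74), while the median of all genes was 0.007. In that comparison 4 astrocyte markers rose (Aldh1l1, Gfap, Slc1a3 and Hepacam), as did 2 of the radial glia markers (Nes and Vim) and 5 of the OPC markers. Other markers on these lists had lower values that did not pass. Among astrocyte markers, Gjb6 had a log2 difference of -0.44 ± 0.14, S100b of -0.40 ± 0.21 and Gja1 of -0.25 ± 0.08. Among radial glia markers, Fabp7 was at -0.30 ± 0.08 (edgeR adjusted p = 0.128; DESeq2 adjusted p = 0.00577) and Pax6 at -0.19 ± 0.07. At an unadjusted p under 0.05, 2 astrocyte and 2 radial glia markers were lower and 6 and 7 were higher. The summed CPM of the 14 astrocyte markers was between 2193 and 2348 in KO, 2055 and 2181 in DKO, 2103 and 2169 in TKO, 1716 and 1925 in QKO and 1969 and 2074 in control brains. The OPC sum was between 533 and 611 in KO, 408 and 423 in DKO, 385 and 413 in TKO, 261 and 301 in QKO and 295 and 338 in control brains. The radial glia sum was between 2667 and 2843 in KO, 2053 and 2208 in DKO, 2176 and 2358 in TKO, 2072 and 2087 in QKO and 2247 and 2314 in control brains. All 3 sums were highest in KO, as Fgfr3 was. The astrocyte, OPC and radial glia means were lowest in QKO, as for Fgfr3. For radial glia the QKO mean (2079) was near that of DKO (2131), and QKO lay within the range of DKO. Unlike Fgfr3, the radial glia sum was lower in both DKO libraries than in control. None of these markers was at 0 in both libraries of a genotype, and their part in the Fgfr3 result was not tested. HOX genes, given above, also moved with the contrast of KO and control. With their mean as a covariate Fgfr3 was at 1.17 ± 0.11 (edgeR adjusted p = 0.00302). That mean was -3.15 and -4.46 in the KO libraries on the log2 scale, relative to control, without overlap. The fit therefore cannot separate genotype from HOX content in this contrast. Without the high-Xist libraries the log2 difference of Fgfr3 in KO against control was 0.74.

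**Figure D4:**
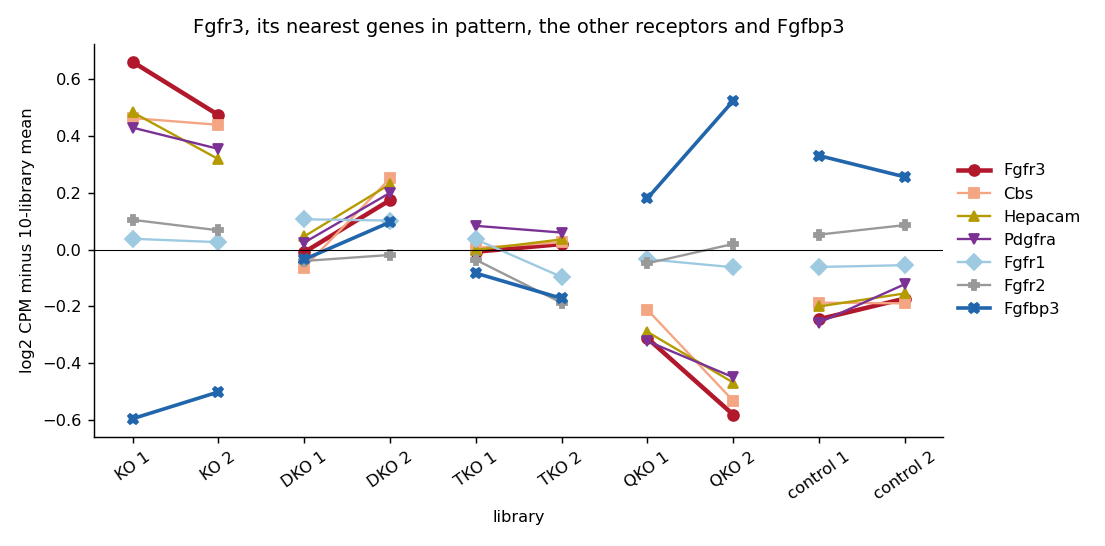
Log2 CPM minus the mean over 10 libraries (vertical axis) in each library, in the order KO, DKO, TKO, QKO and control, for Fgfr3, its 3 nearest genes in pattern, Fgfr1, Fgfr2 and the FGF-binding protein gene Fgfbp3; lines join libraries of a genotype. Fgfr3, Cbs, Hepacam and Pdgfra are highest in KO and lowest in QKO 2, Fgfr1 and Fgfr2 stay near 0, and Fgfbp3 is lowest in KO.

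Among 22 other receptor tyrosine kinases tested, Egfr and Pdgfra were the ones that passed in KO against control. Egfr, the receptor of epidermal growth factor, had 7.55 and 8.30 nRPKM in KO, 4.17 and 4.70 in DKO, 5.15 and 4.87 in TKO, 4.67 and 4.17 in QKO and 4.74 and 5.16 in control brains. Only the KO libraries stood apart. Egfr rose by 0.69 ± 0.09 on the log2 scale in KO against control (edgeR adjusted p = 0.00562), fell by 0.85 ± 0.09 in DKO against KO (adjusted p = 0.00106) and fell by 0.85 ± 0.09 in QKO against KO (adjusted p = 0.000688). Pdgfra rose by 0.58 ± 0.08 in KO against control (adjusted p = 0.00562) and fell by 0.78 ± 0.08 in QKO against KO (adjusted p = 0.000474). For the average of DKO, TKO and QKO against KO, Egfr was at -0.79 ± 0.07 (edgeR adjusted p = 0.000202). Pdgfra was at -0.46 ± 0.06 there (edgeR adjusted p = 0.00396), a call lost without KO 1. Pdgfra was also called in QKO against TKO (-0.46 ± 0.08, edgeR adjusted p = 0.0353), a call lost without TKO 1, TKO 2 or QKO 2. Without control 1 neither rise was called, nor that of Egfr without KO 2, nor that of Pdgfra without KO 1. The rise of Egfr was also not called with the HOX covariate, nor that of Pdgfra without both high-Xist libraries. Ddr1, a collagen receptor, fell by 0.33 ± 0.06 in the average of DKO, TKO and QKO against KO (adjusted p = 0.0279), a call lost without KO 1, KO 2, TKO 1 or TKO 2, with the HOX covariate, without both high-Xist libraries or with only the groups compared. The change of Fgfr3 lay above those of all 22 in KO against control and below those of all 22 in QKO against KO. Egfr fell further than Fgfr3 in the average of DKO, TKO and QKO against KO (-0.79 against -0.69). The same held in DKO against KO, where Egfr was at -0.85 and called, and Fgfr3 at -0.49 and not called. In both comparisons the other 21 lay above Fgfr3.

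Ligand genes outside the 7 gave no calls. Of 14 other secreted FGF genes 10 were tested, and in each of the 10 comparisons 0 passed by edgeR and 0 by DESeq2, with 0 to 2 at an unadjusted p under 0.05. Fgf18 (2.33 nRPKM over all libraries), Fgf3 (1.92) and Fgf10 (1.65) were the most abundant, at the level of Fgf1 and Fgf9. The other 4, Fgf4, Fgf6, Fgf20 and Fgf21, had at most 4 counts in a library. The intracellular FGF homologous factors Fgf11 to Fgf14, which bind sodium channels in neurons and are not secreted, also gave 0 calls by either tool, with 0 to 1 at an unadjusted p under 0.05. Fgf13 was the most abundant of them at 56.8 nRPKM.

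Fgfbp3, whose protein binds secreted FGFs and frees them from the matrix, was the single gene called among 9 other receptors, co-receptors and binding proteins. It stood at 8.18 and 8.75 nRPKM in KO, 12.1 and 13.3 in DKO, 11.7 and 11.02 in TKO, 14.1 and 17.97 in QKO and 15.7 and 14.9 in control brains. Both KO libraries lay below all others, and QKO spanned the control values. Fgfbp3 fell by 0.84 ± 0.11 on the log2 scale in KO against control (edgeR adjusted p = 0.00562), and it was higher than in KO by 0.58 ± 0.11 in DKO (adjusted p = 0.0488) and by 0.91 ± 0.11 in QKO (adjusted p = 0.00171). The call in KO against control was lost without KO 1 or control 1, that in DKO against KO without any 1 of the 4 libraries, and that in QKO against KO with none of the 4 left out. The DKO call was also lost with the Xist covariate, without the high-Xist libraries or with only the groups compared. Fgfbp3 was called as well in the average of DKO, TKO and QKO against KO (0.64 ± 0.09, edgeR adjusted p = 0.00745). That call was lost without KO 1 or KO 2. Fgfr4, Fgfrl1, Kl, Klb, Flrt1, Flrt2, Flrt3 and Fgfbp1 did not pass in any comparison.

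Within the docking and relay proteins that link receptors to ERK, 22 were tested and Gab1, a docking protein, was the single gene called. Gab1 had 10.9 and 11.7 nRPKM in KO, 8.65 and 8.99 in DKO, 9.62 and 8.81 in TKO, 8.61 and 8.34 in QKO and 8.60 and 9.26 in control brains. The KO libraries lay above all 8 others. It was lower than in KO by a log2 difference of -0.36 ± 0.07 in DKO (edgeR adjusted p = 0.0488) and -0.42 ± 0.07 in QKO (adjusted p = 0.0135); the DKO call was lost without any 1 of the 4 libraries and the QKO call without KO 1, KO 2 or QKO 2. The DKO call of Gab1 was also lost under RLE size factors, with the Xist covariate, without the high-Xist libraries or with only the groups compared, and the QKO call with the HOX covariate. Gab1 was also called in the average of DKO, TKO and QKO against KO (-0.36 ± 0.06, edgeR adjusted p = 0.0112). That call was lost without KO 1 or KO 2 and with the HOX covariate. Of 23 heparan sulfate proteoglycan and enzyme genes, Hs6st2, a sulfotransferase, was called in QKO against KO (0.32 ± 0.06, adjusted p = 0.0372), a call lost without KO 1, KO 2 or QKO 2, without the high-Xist libraries or with only the groups compared.

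Of 13 target and feedback genes of FGF signalling, 4 passed in KO against control, all lower: Etv4, Etv5, Etv1 and Spred3. Etv1 and Etv5 are themselves targeted in some genotypes. Etv4, an ETS factor that no genotype targets, stood at 1.18 and 1.20 nRPKM in KO, 1.59 and 1.81 in DKO, 2.09 and 2.29 in TKO, 3.83 and 3.88 in QKO and 5.15 and 6.08 in control brains. Its libraries ordered by genotype without overlap, lowest in KO and highest in control, and it fell by 2.22 ± 0.12 on the log2 scale in KO against control (edgeR adjusted p = 6.38e-06). Etv4 was thus lowest in KO, where Fgfr3 was highest. In QKO both stood below control, but neither difference passed the edgeR test. Of the called inhibitors of the pathway, Spry1, Spry4 and Dusp6 were highest in DKO, as given below, while Spred3 had its lowest mean there. In DKO against control Spry1 rose by 0.55 ± 0.08 (adjusted p = 0.0125) and Dusp6, an ERK phosphatase, by 0.43 ± 0.08 (adjusted p = 0.0421), while Spred3 fell by 0.48 ± 0.07 (adjusted p = 0.0131). The median log2 difference of all 13 genes there was 0.02. Spred3 averaged 7.48 nRPKM in KO, 7.08 in DKO, 9.89 in QKO and 9.91 in control brains. Like Etv4, it was thus lower in KO and DKO than in control. Spred3 was higher in QKO than in KO by 0.39 ± 0.07 (edgeR adjusted p = 0.0232). That call was lost without any 1 of the 4 libraries, with the HOX covariate or with only the groups compared.

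Spry1 had 6.34 and 6.86 nRPKM in KO, 8.39 and 7.77 in DKO, 7.52 and 7.43 in TKO, 6.20 and 6.26 in QKO and 5.59 and 5.50 in control brains. Dusp6 had 10.6 and 11.1 nRPKM in KO, 14.7 and 13.5 in DKO, 11.8 and 11.4 in TKO, 10.2 and 11.3 in QKO and 10.7 and 10.4 in control brains. Spry4 had 2.77 and 2.75 nRPKM in KO, 3.68 and 4.02 in DKO, 3.35 and 3.18 in TKO, 2.74 and 2.70 in QKO and 3.45 and 3.21 in control brains. All 3 genes, inhibitors of the pathway that ERK activity is known to induce, were highest in the DKO libraries, which also had the highest erythroid sums; the part of these in the result was not tested. Spry4 was higher in DKO than in KO by 0.47 ± 0.08 (edgeR adjusted p = 0.0325), a call lost without any 1 of the 4 libraries. The calls of Spry1 and Dusp6 were lost without DKO 1, control 1 or control 2, that of Spred3 in DKO without DKO 2, control 1 or control 2, and that of Spred3 in KO without any 1 of the 4 libraries. These calls in DKO and KO against control were also lost with the HOX covariate and without the high-Xist libraries; that of Spred3 in KO was lost with the Xist covariate as well, and those of Spry1 and Dusp6 with only the groups compared. The Spry4 call was lost with the Xist covariate, without the high-Xist libraries and with only the groups compared.

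**Figure D5:**
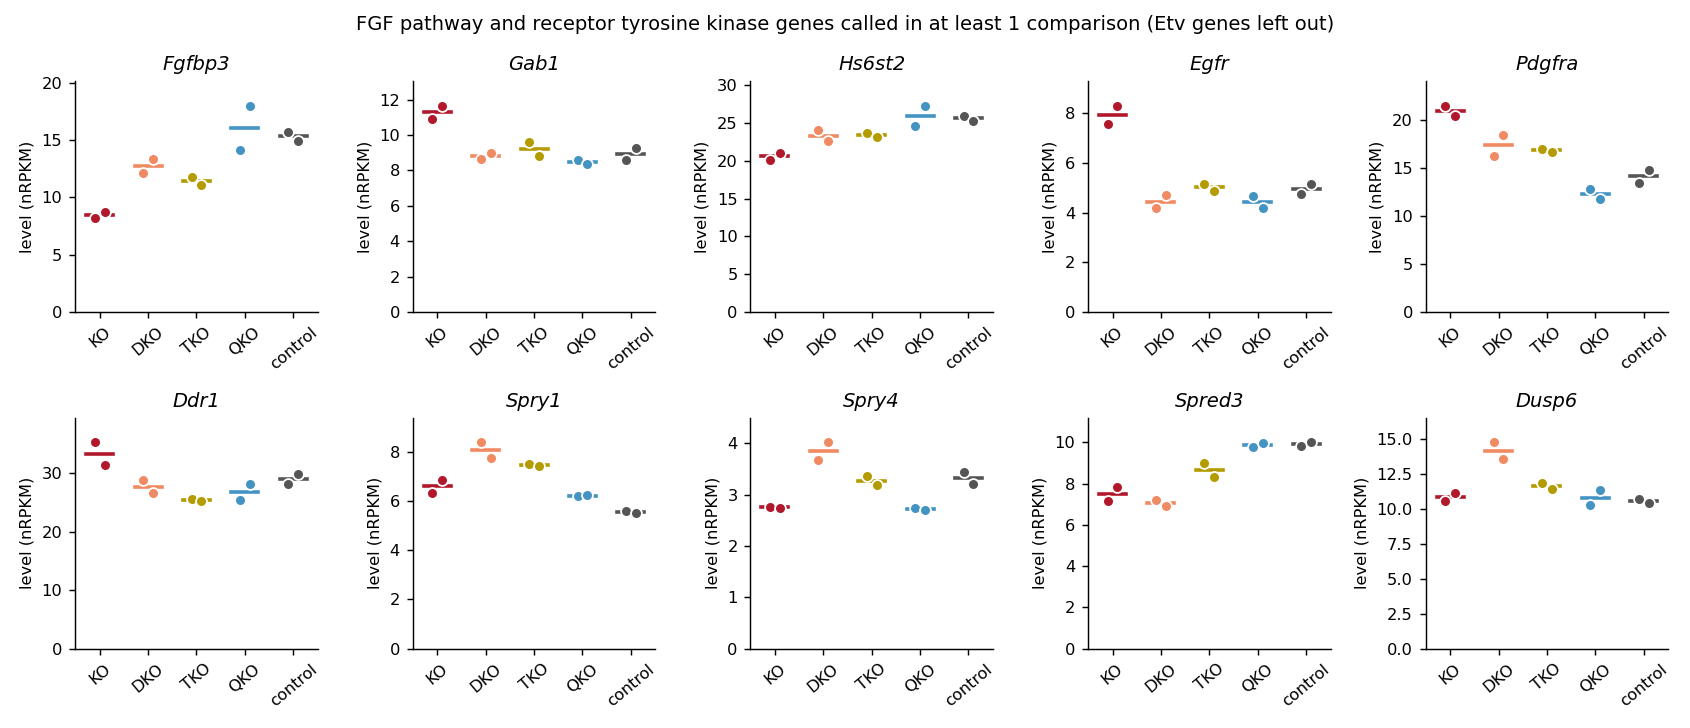
Level (nRPKM, vertical axis from 0) of 10 pathway and receptor tyrosine kinase genes that passed in at least 1 comparison, in KO, DKO, TKO, QKO and control brains; points are libraries, bars the mean of 2. Fgfbp3 is lowest in KO (8.18 and 8.75 nRPKM), Egfr, Gab1 and Pdgfra are highest in KO, and Spry1, Spry4 and Dusp6 are highest in DKO.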

How the data were processed

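Polyadenylated RNA in 10 brain libraries was sequenced as paired ends, per the labels' protocols, and aligned with GSNAP to NCBIM37, per the submitters' processing notes. The deposited counts are reads that aligned uniquely to a gene, per the file headers. The deposited nRPKM values are RPKM that the authors divided by library size factors, per the file headers. No source used here gives the annotation release or strand handling, so overlapping or antisense genes may share reads. Gene symbols came from RefSeq (GRCm38.p6), which named 24998 of 28059 identifiers; of 212 list symbols 2 matched none.

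The test was edgeR's quasi-likelihood test on the counts (edgeR 4.0.16, R 4.3.3; 5 group means over 10 libraries, TMM, filterByExpr, Benjamini-Hochberg adjustment over 18671 genes, 9388 set aside, called at an adjusted p under 0.05), and the script was tested on simulated data. The fit left 5 residual degrees of freedom, and the common biological coefficient of variation was 0.0821. Standard errors came from the F statistic, and DESeq2 1.42.0 was an alternative. Levels are mean nRPKM ± SD. The counts of replicate libraries differed by more than sampling noise in every genotype. The members and gene lists were chosen with earlier results of these data known. The named genes are the 7 members, the listed pathway genes that passed in a comparison, and the 3 genes nearest to Fgfr3. Alternatives were another size factor method (RLE), no filter, only the groups compared, covariates for Xist and for HOX genes, and leaving out libraries.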

Additional observations from a re-analysis of the deposited data

How the results depend on the processing

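The number of members called was recomputed under each alternative. In DKO against KO it was 1 (Fgfr3), against 0 reported, by DESeq2, without the filter and with the HOX covariate. In QKO against TKO it was likewise 1 (Fgfr3) under these 3. In DKO against control it was 1 by DESeq2, without the filter, with only the groups compared (Fgf1 in these 3) and with the HOX covariate (Fgfr3). It was 1 in TKO against control with only the groups compared (Fgf1), and 1 for the 4 genotypes without COP1 with the HOX covariate (Fgfr3). With 1 library left out the number ran from 0 to 1 in KO against control, in DKO against KO and in QKO against TKO. In DKO against KO, Fgfr3 passed without DKO 2 (-0.57, edgeR adjusted p = 0.0471), and in QKO against TKO without QKO 1 (-0.58, adjusted p = 0.0378). The cause of these moves was not tested. Of 833 values of the members under the alternatives, 55 changed sign, and none of those was called in either fit. The number of all genes called lay between 17 and 240 over the comparisons, against 81 to 328 by DESeq2 and 122 to 487 without the filter. No paired analysis was possible because the labels give no batch, litter or pairing. Depth limits Fgf2 most.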
